A study of Mus musculus with 8 samples.

Results

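The unfolded protein response and protein folding in the endoplasmic reticulum (ER) were followed through 40 genes in sorted mouse pancreatic beta cells. The genes were taken by symbol from a list of the response's sensors, transcription factors, chaperones and degradation factors, and all 40 were found among the 55487 deposited gene identifiers. They were grouped by convention into 8 genes of the PERK/ATF4 arm, 6 of the IRE1/XBP1 arm and the translocon, 15 of the ATF6 arm and ER folding, 9 of ER-associated degradation, and Wfs1 and Creb3l2, although many answer to more than 1 arm. RNA came from 4 Chd4KO and 4 Control mice, with 1 library per animal number in the labels. Islets of tamoxifen-treated mice were dispersed and flow-sorted, and the labels give the genotypes only as Chd4KO and Control and the mutant mice as Chd4Db. The Cre driver, the age and strain of the mice, and whether Control mice carried Cre are not given in the sources used here. All animal numbers of Chd4KO lie above those of Control, and any litter, age or day that they mark cannot be told apart from genotype. Chd4 is the helicase of the NuRD complex, which moves nucleosomes and removes histone acetyl groups.

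Beta cells send large amounts of proinsulin into the ER, where chaperones and disulfide isomerases fold it. When unfolded proteins build up, the ER-membrane sensors PERK, IRE1 and ATF6 start the unfolded protein response: PERK slows translation and raises ATF4, IRE1 splices the mRNA of XBP1, and ATF6 is cut to free a transcription factor. ATF6 and XBP1 raise chaperone and degradation genes, while ATF4 raises genes of amino acid supply and, when stress lasts, the CHOP gene Ddit3. Activation of PERK, IRE1 and ATF6 happens at the level of protein and splicing, and a TPM per gene holds neither phosphorylation nor the spliced share of Xbp1.

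Chd4 itself had 8.38, 6.18, 5.27 and 2.59 TPM in Chd4KO replicates 1 to 4, against 15.98, 13.4, 11.1 and 12.3 TPM in Control replicates 1 to 4. The groups did not overlap, and its change was -1.18 ± 0.29 (log2, SE; 95% confidence interval -1.84 to -0.52; limma adjusted p = 0.0725). Chd4 passed the test in 7 of 19 alternatives, with adjusted p between 0.00780 and 0.200; leaving out Chd4KO replicate 1 or replicate 4 was among these (0.0429 and 0.0325). With 1 value per gene, exons outside a deleted stretch cannot be separated. The 10 beta cell markers were detected in all 8 libraries. Of these, 5 (Mafa, Slc2a2, Nkx6-1, G6pc2 and Slc30a8) were lower in every Chd4KO library than in every Control library, as were 11.3% of all tested genes. Ins1, Ins2, Iapp, Pdx1 and Ucn3 overlapped between groups, and none of the 10 was higher in every Chd4KO library. The sum of the 10, mostly insulin transcripts, averaged 498532 ± 116486 TPM in Chd4KO and 453174 ± 17107 TPM in Control (SD, n = 4 each). Mafa, a factor of mature beta cells, ranged from 20.4 to 69.8 TPM in Chd4KO and from 154 to 183 TPM in Control, and the part of such differences in the results was not tested. Reads recovered from TPM numbered 14.9 to 20.2 M per Chd4KO library and 16.4 to 41.0 M per Control library (exact permutation p = 0.0857, two-sided, with 0.0286 the smallest that 4 against 4 allows). Even the scarcest value of any of the 40 genes rested on 234 reads. A pair of Chd4KO libraries stood apart. In Chd4KO replicate 4 the insulin genes Ins1 and Ins2 took 62.0% of TPM, against 32.4 to 47.0% in the other 3 Chd4KO libraries and 38.1 to 41.8% in Control. In Chd4KO replicate 2 the 22 acinar markers (acinar cells make the digestive enzymes of the pancreas) summed to 44918 TPM, against 37.4 to 433 TPM in the other 3 Chd4KO libraries and 112 to 1849 TPM in Control. That library held the highest value of 21 of the 22 markers. The remaining marker, Bhlha15, was highest in Chd4KO replicate 1 (166 TPM). It made up 34.7 of the 37.4 TPM in Chd4KO replicate 4, so low sums hold little of the other markers. The acinar factor Ptf1a was listed at 0 in 6 libraries and at 2.35 TPM in Chd4KO replicate 2. In sorted bulk RNA, fewer cells of a type and less RNA per cell cannot be told apart.

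Promoter sequence was searched for exact matches to the DNA element that ATF6 and XBP1 are known to bind. In RefSeq windows of 250 bases before to 50 bases after the start (GRCm38.p6, the assembly behind mm10), a window was at hand for 36 of the 40 genes, and Atf6, Hyou1, Manf and Derl1 had none. The ER stress element, CCAAT and CCACG separated by 9 bases, read on both strands, was present in 9 of the 36 promoters (25%) and in 37 of 27025 genes in the table (0.137%). It lay in 7 of 12 promoters of the ATF6 and folding genes, in 2 of 8 of the degradation genes, and in none of the 8 PERK/ATF4 promoters or the 6 IRE1/XBP1 and translocon promoters. None of 151 other genes of the pathway with a window held it. The 40 genes were listed for their part in this response, so a share above that of all genes carries no test. The sites are shown because they were found in chaperone and degradation genes and in none of the ATF4 genes. Capitals mark the CCAAT and CCACG parts, each run reads 5′ to 3′ on the strand that reads CCAAT first, and Hsp90b1 has a site on each strand.
Hspa5 (chr2:34772020-34772048, strand +): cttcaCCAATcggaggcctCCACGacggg
Hsp90b1 (chr10:86705633-86705661, strand -): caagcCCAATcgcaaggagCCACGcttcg
Hsp90b1 (chr10:86705528-86705556, strand +): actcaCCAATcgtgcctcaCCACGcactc
Calr (chr8:84847070-84847098, strand +): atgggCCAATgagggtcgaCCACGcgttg
Canx (chr11:50325795-50325823, strand -): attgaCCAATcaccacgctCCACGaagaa
Pdia6 (chr12:17266486-17266514, strand +): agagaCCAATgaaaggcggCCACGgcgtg
Dnajc3 (chr14:118937822-118937850, strand +): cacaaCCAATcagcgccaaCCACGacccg
Creld2 (chr15:88819515-88819543, strand -): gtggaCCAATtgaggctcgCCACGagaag
Derl3 (chr10:75893237-75893265, strand -): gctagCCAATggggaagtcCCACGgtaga
Syvn1 (chr19:6046527-6046555, strand +): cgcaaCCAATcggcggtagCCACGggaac

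The ER stress element II, ATTGG and CCACG separated by 1 base, lay in the promoters of Herpud1 and Dnajb11, 2 of 36 (5.56%), against 12 of 27025 genes (0.0444%). The C/EBP-ATF element TTGCATCA, which ATF4 and CHOP are known to bind with C/EBP partners, lay in those of Chac1, Nupr1 and Herpud1, 3 of 36 (8.33%), against 279 of 27025 (1.03%). The unfolded protein response element TGACGTGG was found in none of the 36, against 193 of 27025 (0.714%). None of the matches in the 40 genes overlap each other. A match describes letters in a window and no binding was measured here. Herpud1 was the only 1 of the 36 genes with both of the elements shown next, whose parts are in capitals.
Herpud1, ER stress element II (chr8:94386372-94386392, strand +): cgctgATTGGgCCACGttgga
Herpud1, C/EBP-ATF element (chr8:94386312-94386329, strand +): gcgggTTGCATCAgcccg
Chac1, C/EBP-ATF element (chr2:119351044-119351061, strand +): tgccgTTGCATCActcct

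The comparison of Chd4KO with Control asked whether the response differs once Chd4 is deleted in beta cells. Limma on log2(TPM + 1) called 0 of the 40 genes at an adjusted p under 0.05, where it called 451 of all 15189 tested genes (2.97%; 1.53% higher and 1.44% lower in Chd4KO). At an unadjusted p under 0.05, 6 of the 40 passed (Creld2 with a higher level, and Atf4, Ddit3, Ppp1r15a, Ern1 and Sec61b with a lower one), against 16.2% of all tested genes. Limma with a variance trend (2.82% of all genes called) and voom on the recovered reads (3.87%) also called 0 of the 40. The groups did not overlap for 2 of the 40, Ssr4 and Wfs1, both lower in Chd4KO, against 14.8% of all tested genes (11.3% lower, 3.54% higher). The called and unadjusted counts among the 40 were close to the shares of all tested genes, and the count without overlap was below its share. None of these counts carries a test. Intervals of single genes were wide, reaching from -2.28 to 0.77 for Hyou1, so a missed threshold does not show equal levels.

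**Figure D1:**
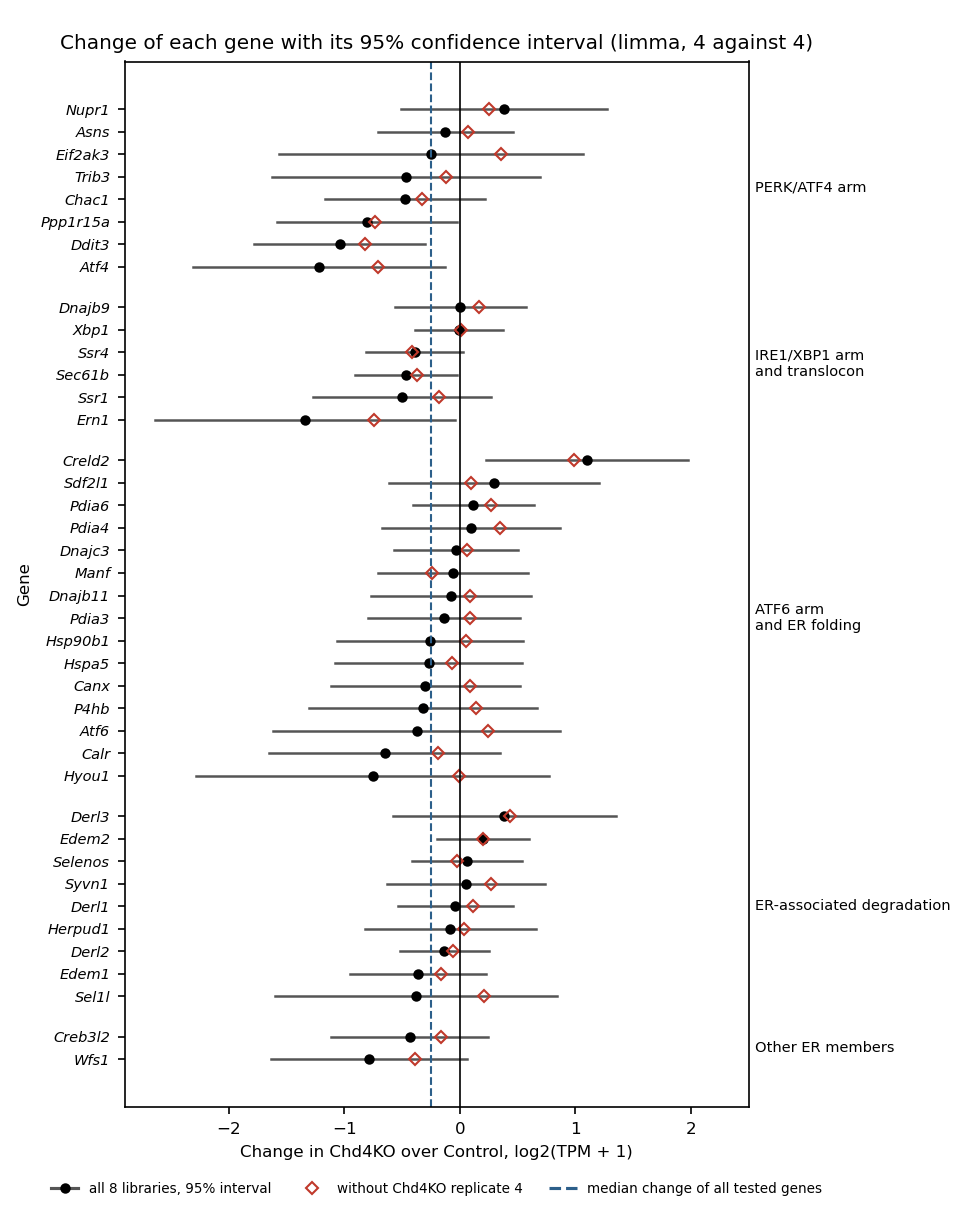
Change of each of the 40 genes in Chd4KO over Control on the log2(TPM + 1) scale, with points for the limma estimate from 8 libraries, bars for its 95% confidence interval, open diamonds for the estimate without Chd4KO replicate 4, and a dashed line at the median change of all tested genes (-0.25). Most intervals cross 0, and Creld2 stands at the high end (1.10) and Ern1 at the low end (-1.34).

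The median change of the 40 genes was -0.25 (log2), and that of all tested genes was also -0.25, with 20 of the 40 above and 20 below it. By arm, the median was -0.47 for PERK/ATF4, -0.43 for IRE1/XBP1 and translocon, -0.14 for ATF6 and folding, and -0.04 for degradation. Relative to all genes these are -0.22, -0.18, 0.12 and 0.21. Median-of-ratios scaling moved the median of all genes to -0.02, and leaving out Chd4KO replicate 4 moved it to -0.05. Without that library the arm medians were -0.23, -0.28, 0.09 and 0.12 in the same order, and none of the 40 genes was called (5.48% of all genes). The estimate of 14 of the 40 genes had the other sign without it, 13 of them turning from negative to positive. With median-of-ratios scaling the arm medians were -0.19, -0.14, 0.15 and 0.25. The medians are descriptions of lists chosen with earlier results known, and no test of a list was made.

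The 40 genes varied more among Chd4KO libraries than among Control libraries. The SD of log2(TPM + 1) was larger in Chd4KO for 37 of 40 genes (92.5%), with a median of 0.63 in Chd4KO and 0.20 in Control. Over all tested genes it was larger for 87.7%, with medians of 0.51 and 0.18. Without Chd4KO replicate 4 it was larger for 34 of the 40 (85%), against 69.7% of all tested genes. Together the 40 genes took 2.17, 1.18, 1.57 and 1.02% of TPM in Chd4KO replicates 1 to 4, against 1.47, 1.33, 1.71 and 1.604% in Control replicates 1 to 4. The highest and the 2 lowest shares of all 8 libraries were thus all Chd4KO.

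The extreme values fell mostly in a pair of libraries. Chd4KO replicate 1 held the highest value of all 8 libraries for 25 of the 40 genes, against 26.6% of all tested genes. Chd4KO replicate 4 held the lowest for 27 of the 40, which is close to its 67.7% of all tested genes. In the ATF6 and folding arm the library's median deviation from the Control mean was 0.63, -0.46, 0.09 and -0.81 (log2) in Chd4KO replicates 1 to 4, against 0.08, -0.24, 0.13 and 0.04 in Control replicates 1 to 4. In the PERK/ATF4 arm it was -0.02, -0.12, -1.03 and -1.26 in Chd4KO, against -0.05, -0.04, -0.02 and 0.20 in Control. Over all tested genes the median was 0.06, -0.02, -0.20 and -0.83 in Chd4KO, against 0.11, 0.003, -0.04 and -0.05 in Control. Beside all genes, folding genes stood high in Chd4KO replicate 1 and low in replicate 2, and in replicate 4 their median was close to that of all genes. ATF4 genes stood below all genes in replicates 3 and 4. Chd4KO replicate 2, with its low folding genes, was the library with the acinar transcripts, and the part of these transcripts in the result was not tested.

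**Figure D2:**
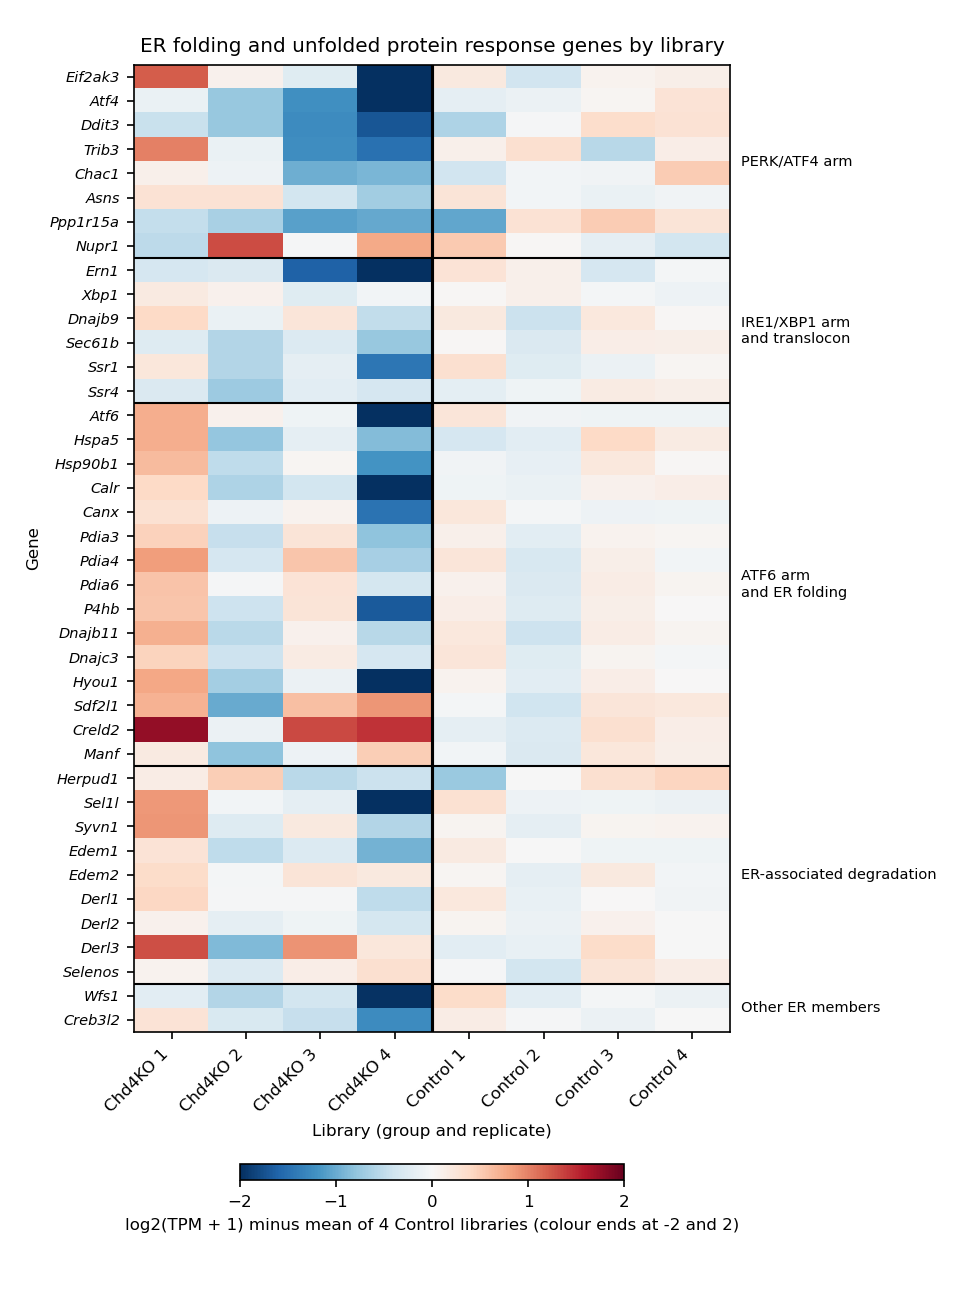
Heat map of the 40 genes (lines, by arm) in the 4 Chd4KO and 4 Control libraries (columns), coloured by log2(TPM + 1) minus the mean of the 4 Control libraries, with colour ending at -2 and 2. The Control columns are pale, Chd4KO replicate 1 is red over most folding genes, replicate 4 is blue over most genes, and Creld2 is red in replicates 1, 3 and 4.

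The low values of Chd4KO replicate 4 went with long transcripts. Deviation from the median of the other 7 libraries in that library was -0.35 (log2) for genes with under 2000 bases of merged exons, -0.62 for 2000 to 4000 bases and -1.28 for 4000 or more, as medians over 1718, 2402 and 3002 tested genes whose TPM averaged 10 or more. For the 40 genes the same medians were 0.24 (7 genes), -0.64 (19) and -1.28 (14). Spearman's rho across genes in that library was -0.42 for all 7122 genes and -0.43 for the 40, as a description, since genes of a library are not independent. In the other 3 Chd4KO libraries rho lay between -0.13 and 0.19 over all genes and between -0.11 and 0.17 over the 40. In Control it lay between -0.13 and 0.17 over all genes, but the 40 reached 0.50 in Control replicate 1 and -0.32 in Control replicate 3, so a length trend of the 40 was not limited to Chd4KO replicate 4. Of the 7 genes under 2000 bases, Sdf2l1 (1108 bases of exon), Creld2 (1366), Selenos (1477) and Derl3 (1993) were above the median of the other libraries in Chd4KO replicate 4, and Sec61b (1271), Chac1 (1637) and Ddit3 (1713) were below it. The long genes Hyou1 (7230), Ern1 (8173), Sel1l (8555) and Atf6 (9231) were low there, at -3.01, -2.85, -2.04 and -2.16 (log2). Other long genes fell less, with Derl2 (8049) at -0.34 and Dnajc3 (5141) at -0.38. Shorter genes were low as well, with Atf4 (2358) at -2.62, Calr (2880) at -1.94 and P4hb (2861) at -1.79. The part of exon length in single changes was not tested beyond a fit with each library's length curve removed, which called 0 of the 40 genes and 5.41% of all genes.

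**Figure D3:**
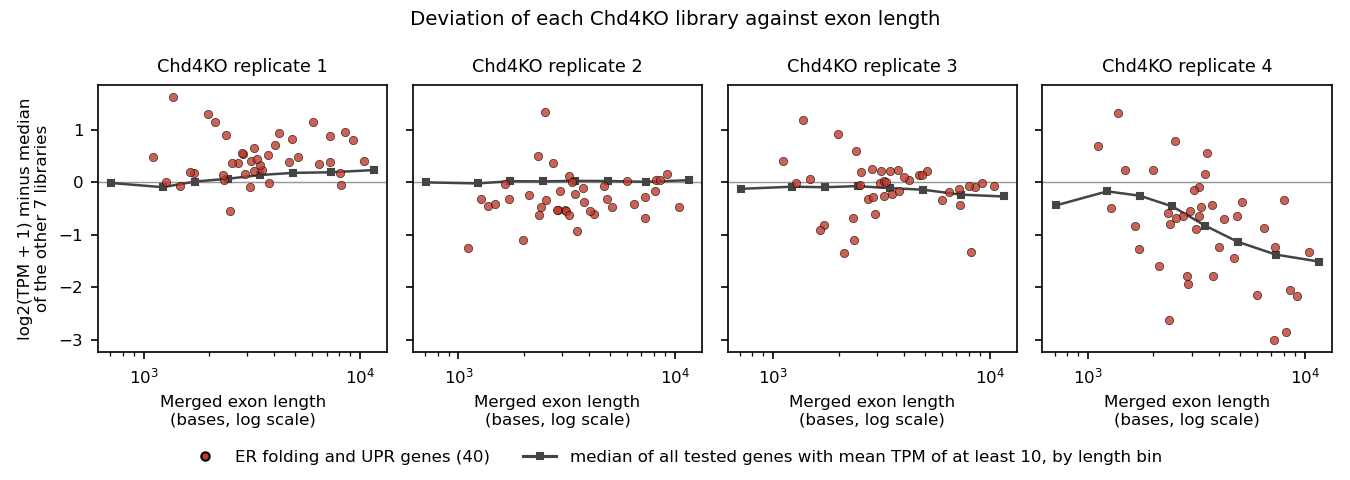
Deviation of each gene's log2(TPM + 1) in 1 Chd4KO library from the median of the other 7 libraries, against merged exon length on a log axis, with points for the 40 genes and a line for the median of all tested genes averaging 10 TPM or more in bins of length. The line is near 0 in Chd4KO replicates 1 to 3 and falls with length in replicate 4, where the points fall as well.

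Among the sensors, values spread widely over Chd4KO libraries without a called change. Eif2ak3, which encodes PERK, had 75.6, 34.2, 26.9 and 6.92 TPM in Chd4KO replicates 1 to 4, against 36.6, 24.3, 33.7 and 35.00 TPM in Control replicates 1 to 4. Its Chd4KO values lie on both sides of Control, with the highest and the lowest of all 8 libraries in Chd4KO, and its change was -0.25 ± 0.58 (log2, SE; 95% confidence interval -1.56 to 1.06; limma adjusted p = 0.822). Atf6 had 53.9, 34.01, 30.3 and 6.02 TPM in Chd4KO replicates 1 to 4, against 38.2, 30.4, 30.1 and 30.1 TPM in Control replicates 1 to 4. It was likewise highest and lowest in Chd4KO replicates 1 and 4, with a change of -0.38 ± 0.55 (log2, SE; 95% confidence interval -1.61 to 0.86; limma adjusted p = 0.716). Without Chd4KO replicate 4 both estimates turned positive, at 0.35 for Eif2ak3 and 0.24 for Atf6 (adjusted p = 0.624 and 0.588). Ern1, which encodes IRE1 (ENSMUSG00000020715, mm10 chromosome 11, 106394650 to 106487852), had 22.8, 23.6, 8.798 and 2.42 TPM in Chd4KO replicates 1 to 4, against 35.3, 31.2, 22.6 and 28.2 TPM in Control replicates 1 to 4. Chd4KO replicates 3 and 4 lie below every Control library, and replicates 1 and 2 lie above Control replicate 3 only. The Ern1 change was -1.34 ± 0.58 (log2, SE; 95% confidence interval -2.64 to -0.04; limma adjusted p = 0.295), and -0.74 without Chd4KO replicate 4 (adjusted p = 0.270).

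The transcription factors of the PERK arm stood low in Chd4KO without passing the test. Atf4 (ENSMUSG00000042406, mm10 chromosome 15, 80255184 to 80257541), the activator that PERK signalling raises mainly through translation, had 241, 156, 113 and 38.5 TPM in Chd4KO replicates 1 to 4, against 234, 245, 272 and 320.5 TPM in Control replicates 1 to 4. Chd4KO replicates 2 to 4 lie below every Control library, and replicate 1 lies just above the lowest of them, Control replicate 1. Atf4 averaged 137 ± 84.8 TPM in Chd4KO and 268 ± 38.7 TPM in Control (SD, n = 4 each), and its change was -1.22 ± 0.48 (log2, SE; 95% confidence interval -2.31 to -0.13; limma adjusted p = 0.258). Without Chd4KO replicate 4 the change was -0.71 (adjusted p = 0.174). Ddit3 (ENSMUSG00000025408, mm10 chromosome 10, 127290774 to 127296288), which encodes CHOP, a factor of lasting ER stress, had 94.96, 75.9, 53.6 and 38.7 TPM in Chd4KO replicates 1 to 4, against 83.5, 128, 165 and 158 TPM in Control replicates 1 to 4. Chd4KO replicates 2 to 4 lie below every Control library, and replicate 1 lies above Control replicate 1 only. Its change was -1.04 ± 0.33 (log2, SE; 95% confidence interval -1.78 to -0.30; limma adjusted p = 0.158), the smallest adjusted p of the 40 genes. Exons of Ddit3 overlap those of Mars on the opposite strand, and these libraries do not mark strand.

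Ppp1r15a, which encodes GADD34, the subunit that directs a phosphatase to eIF2 and so ends the translation block, had 198, 176, 129.6 and 135 TPM in Chd4KO replicates 1 to 4, against 133, 336, 392.5 and 329.6 TPM in Control replicates 1 to 4. The 4 Chd4KO libraries and Control replicate 1 lie together, and Control replicates 2 to 4 lie well above them. Its change was -0.81 ± 0.34 (log2, SE; 95% confidence interval -1.58 to -0.03; limma adjusted p = 0.292), and -1.16 without Control replicate 1 (adjusted p = 0.0561). The 4 other targets of the arm gave intervals that include 0. Trib3, a pseudokinase induced by ATF4 and CHOP, had an estimate of -0.47 (-1.63 to 0.69), with values from 16.9 to 100.7 TPM in Chd4KO and from 33.4 to 62.2 TPM in Control. Chac1, which breaks down glutathione, had an estimate of -0.47 (-1.17 to 0.22), and Asns, which makes asparagine, one of -0.13 (-0.71 to 0.46). Nupr1, a small stress-induced nuclear protein, had 53.5, 192, 75.5 and 131 TPM in Chd4KO replicates 1 to 4, against 111, 78.6, 67.7 and 59.2 TPM in Control replicates 1 to 4. It was high in Chd4KO replicates 2 and 4 and had an estimate of 0.38 (-0.51 to 1.27).

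Xbp1, the factor that IRE1 activates by splicing, had 597, 559.5, 447 and 505 TPM in Chd4KO replicates 1 to 4, against 537, 566, 514 and 491 TPM in Control replicates 1 to 4. The Chd4KO values span 1.34-fold and enclose the Control values, which span 1.15-fold, and the interval of its change was -0.39 to 0.38 (log2) around an estimate of -0.01 (limma adjusted p = 0.987). Dnajb9, a co-chaperone of BiP that XBP1 induces, had 246, 169, 219 and 132 TPM in Chd4KO replicates 1 to 4, against 212, 138, 214 and 189.7 TPM in Control replicates 1 to 4. Its estimate was 0.00 (-0.56 to 0.57). Sec61b, a subunit of the channel through which proteins enter the ER, had 229, 183, 227 and 162 TPM in Chd4KO replicates 1 to 4, against 279, 225, 301 and 299 TPM in Control replicates 1 to 4. Chd4KO values lie low and overlap only Control replicate 2, and the change was -0.47 ± 0.19 (log2, SE; 95% confidence interval -0.91 to -0.03; limma adjusted p = 0.282). Under median-of-ratios scaling the Sec61b estimate shrank to -0.18 (limma adjusted p = 0.693). Ssr4 and Ssr1 encode subunits of the translocon-associated protein complex. Ssr4 had 153, 113, 161 and 148 TPM in Chd4KO replicates 1 to 4, against 163, 176, 211 and 203 TPM in Control replicates 1 to 4. Every Chd4KO library lies below every Control library in TPM, and the change was -0.39 ± 0.19 (log2, SE; 95% confidence interval -0.82 to 0.03; limma adjusted p = 0.341). Measured from the all-gene median, Ssr4 stood at -0.14. Its estimate was -0.10 under median-of-ratios scaling (limma adjusted p = 0.876) and -0.20 with length curves removed (limma adjusted p = 0.688). Ssr1, with the longest exons of the 40 genes, had an estimate of -0.50 (-1.27 to 0.27).

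Creld2 had the largest positive estimate of the 40 genes. Creld2 (ENSMUSG00000023272, mm10 chromosome 15, 88819646 to 88826683), an ER protein with disulfide isomerase activity that ER stress induces, had 1136, 308, 834 and 915 TPM in Chd4KO replicates 1 to 4, against 295, 277, 419 and 365 TPM in Control replicates 1 to 4. Chd4KO replicates 1, 3 and 4 lie above every Control library, and replicate 2 lies within the Control range. It averaged 798 ± 351 TPM in Chd4KO and 339 ± 65.4 TPM in Control (SD, n = 4 each), and its change was 1.10 ± 0.39 (log2, SE; 95% confidence interval 0.23 to 1.98; limma adjusted p = 0.204). Without Chd4KO replicate 2, the library with acinar transcripts, the change was 1.51 and passed the test (limma adjusted p = 0.0139, with 2.99% of all genes called), and without replicates 2 and 4 it was 1.54 (adjusted p = 0.0161). Over the other 17 alternatives the adjusted p lay between 0.127 and 0.422. Its upstream promoter (GRCm38.p6, chr15:88819396-88819645, strand +) is shown in full because it holds the element in a gene whose level differs most among the folding genes. Capitals mark the 2 parts of the ER stress element, which on this strand reads CGTGG and then ATTGG.
Creld2: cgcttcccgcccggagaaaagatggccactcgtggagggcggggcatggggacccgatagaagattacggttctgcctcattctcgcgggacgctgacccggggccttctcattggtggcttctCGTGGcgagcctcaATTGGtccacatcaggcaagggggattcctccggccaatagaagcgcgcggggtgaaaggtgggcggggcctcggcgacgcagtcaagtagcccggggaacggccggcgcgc

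The most abundant chaperones had Chd4KO values on both sides of Control. Hspa5 (ENSMUSG00000026864, mm10 chromosome 2, 34771970 to 34777547), which encodes BiP, the main ER chaperone and the partner that holds the sensors inactive, had 3661, 1294, 1959 and 1214 TPM in Chd4KO replicates 1 to 4, against 1751, 1906, 2898 and 2463 TPM in Control replicates 1 to 4. Replicate 1 of Chd4KO was the highest of all 8 libraries and replicates 2 and 4 were the lowest. Its change was -0.27 ± 0.36 (log2, SE; 95% confidence interval -1.08 to 0.54; limma adjusted p = 0.689). Per 1000 TPM of insulin transcripts, Hspa5 stood at 10.05, 3.998, 4.17 and 1.96 TPM in Chd4KO, against 4.599, 4.76, 6.93 and 6.03 TPM in Control. Hsp90b1, the ER member of the HSP90 family, had 1666, 752, 1099 and 469 TPM in Chd4KO replicates 1 to 4, against 1022, 953, 1242 and 1095 TPM in Control replicates 1 to 4. P4hb, the protein disulfide isomerase, had 2583, 1324, 2103 and 548 TPM in Chd4KO replicates 1 to 4, against 1935, 1476, 1898 and 1757 TPM in Control replicates 1 to 4. Both were highest in Chd4KO replicate 1 and lowest in replicate 4, with estimates of -0.26 (-1.06 to 0.54) and -0.32 (-1.30 to 0.67).

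Calr and Canx, the lectin chaperones of glycoproteins, were also highest in Chd4KO replicate 1 and lowest in replicate 4. Calr had 1320.4, 649.7, 776 and 244 TPM in Chd4KO replicates 1 to 4, against 941, 908, 1063 and 1092 TPM in Control replicates 1 to 4, with an estimate of -0.65 (-1.65 to 0.35). Canx had an estimate of -0.30 (-1.12 to 0.52), with values from 103 to 356 TPM in Chd4KO and from 267 to 336 TPM in Control. Among the further disulfide isomerases, Pdia3, the partner of both lectins, had an estimate of -0.14 (-0.79 to 0.52), Pdia4 of 0.10 (-0.67 to 0.87) and Pdia6 of 0.12 (-0.41 to 0.64). Pdia4 had 964, 424, 788 and 339 TPM in Chd4KO replicates 1 to 4, against 639, 432, 586 and 517 TPM in Control replicates 1 to 4. Its Chd4KO values fall into a high pair, replicates 1 and 3, and a low pair, replicates 2 and 4.

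Co-chaperones gave estimates close to 0 or wide intervals. Hyou1, which reloads BiP with ATP, had 233, 84.3, 125 and 16.1 TPM in Chd4KO replicates 1 to 4, against 143, 117, 149 and 136 TPM in Control replicates 1 to 4. Its highest Chd4KO value was 14.5 times its lowest, the widest range of the 40 genes, while its Control range was 1.27-fold. Sdf2l1, which works with Dnajb11 on BiP clients, had 1067, 329, 1009.8 and 1227 TPM in Chd4KO replicates 1 to 4, against 642, 501, 784 and 763 TPM in Control replicates 1 to 4. Chd4KO replicates 1, 3 and 4 lie above every Control library and replicate 2 below every one, and the estimate was 0.29 (-0.62 to 1.21). Dnajb11, a BiP co-chaperone, had an estimate of -0.08 (-0.77 to 0.62), and Dnajc3, another, of -0.03 (-0.57 to 0.50). Manf, a secreted protein of ER stress that supports beta cells, had an estimate of -0.06 (-0.71 to 0.59), and its exons overlap those of Dcaf1 and Rbm15b.

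**Figure D4:**
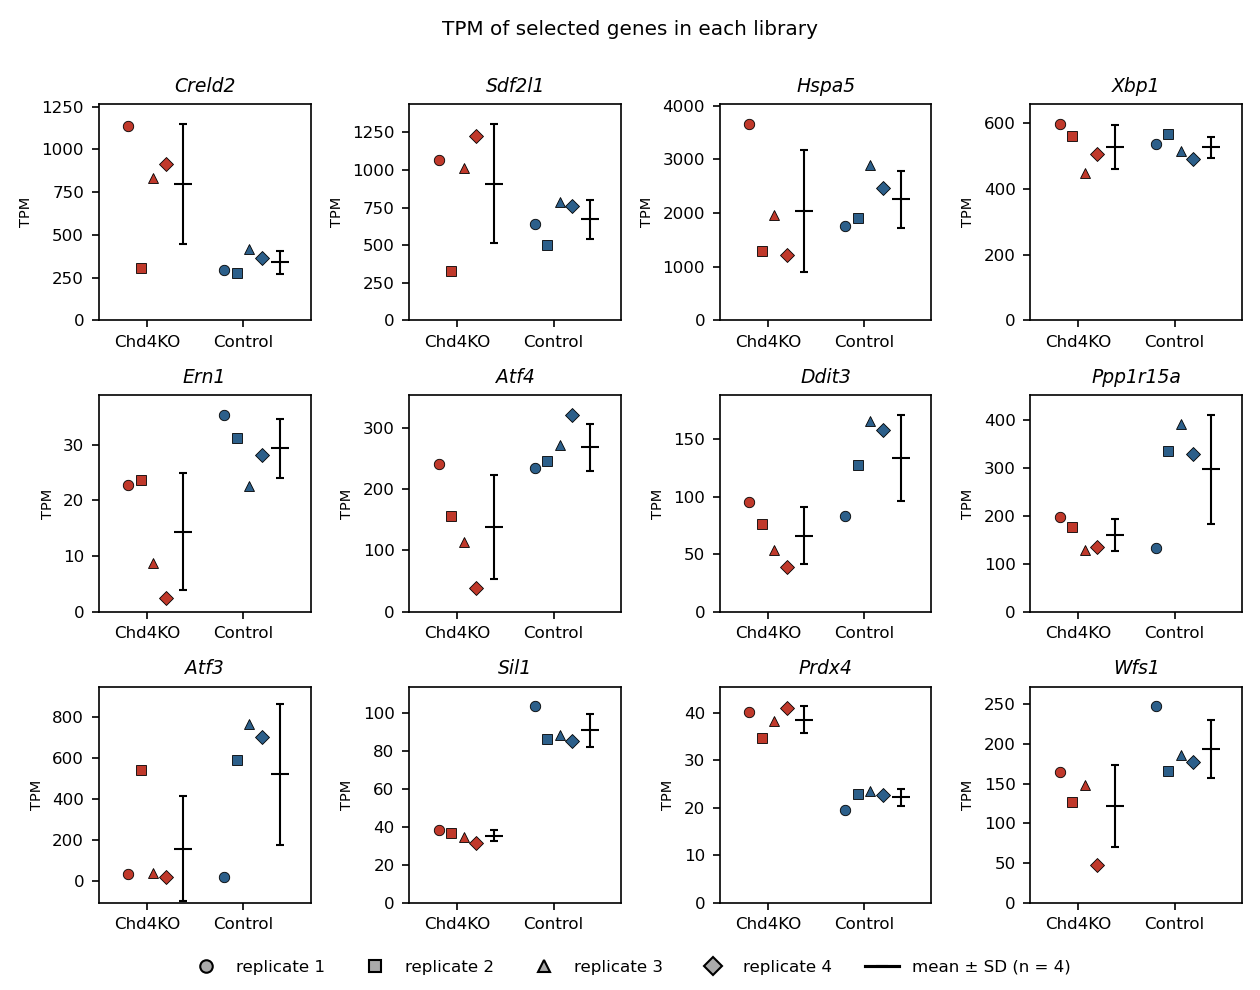
TPM of 12 genes in each library on linear axes, with markers for replicates 1 to 4, Chd4KO left of Control, and bars for mean ± SD (n = 4 each). Creld2 is high in 3 of 4 Chd4KO libraries, Atf4 and Ddit3 run low in Chd4KO with overlap, Ppp1r15a and Atf3 are low in Control replicate 1 as well, and Sil1 and Prdx4 separate the groups.

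No degradation gene passed the test over 8 libraries. Derl3, a channel factor of the ER membrane that stress induces, had 256, 56.5, 197 and 123 TPM in Chd4KO replicates 1 to 4, against 90.2, 94.1, 136 and 104 TPM in Control replicates 1 to 4. Chd4KO replicates 1 and 3 lie above every Control library and replicate 2 lies below every one, and the change was 0.38 ± 0.43 (log2, SE; 95% confidence interval -0.58 to 1.35; limma adjusted p = 0.636). Without Chd4KO replicates 2 and 4 it was 1.09 and passed the test (limma adjusted p = 0.0405, with 5.07% of all genes called), and no other alternative called it. Herpud1, a scaffold of the degradation complex, had 871, 1109.7, 542 and 581 TPM in Chd4KO replicates 1 to 4, against 471, 785, 983 and 1055 TPM in Control replicates 1 to 4. Its 2 lowest Chd4KO values lie above Control replicate 1 and below the other 3 Control libraries, and the estimate was -0.08 (-0.82 to 0.66). Syvn1, the ubiquitin ligase HRD1, had an estimate of 0.05 (-0.63 to 0.74), and its partner Sel1l one of -0.38 (-1.60 to 0.84). Sel1l reached from 22.6 to 187 TPM in Chd4KO and from 94.5 to 127 TPM in Control. Edem1 and Edem2, which mark misfolded glycoproteins for removal, had estimates of -0.36 (-0.95 to 0.22) and 0.20 (-0.20 to 0.60). Derl1, Derl2 and Selenos, further membrane factors of the export step, had estimates of -0.04 (-0.54 to 0.46), -0.14 (-0.52 to 0.25) and 0.06 (-0.42 to 0.54).

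Wfs1, an ER membrane protein that is lost in Wolfram syndrome with diabetes, had 165, 127, 149 and 47.8 TPM in Chd4KO replicates 1 to 4, against 247, 166, 187 and 177 TPM in Control replicates 1 to 4. Every Chd4KO library lies below every Control library. The change was -0.79 ± 0.38 (log2, SE; 95% confidence interval -1.64 to 0.06; limma adjusted p = 0.339), and -0.39 without Chd4KO replicate 4 (adjusted p = 0.274). Creb3l2, a membrane-bound transcription factor related to ATF6, had an estimate of -0.44 (-1.11 to 0.24).

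Ratios between a pair of genes within a library do not depend on how TPM is scaled, and they were added after the data had been seen. They can still carry the exon length trend of Chd4KO replicate 4 where the lengths of the pair differ. Of the 780 pairs among the 40 genes, the ratio did not overlap between groups in 74 (9.49%), against 16.6% of pairs of all tested genes with TPM above 0 in every library. Creld2 stood in 19 of the 74, each with a higher ratio in Chd4KO, out of its 39 partners, while its ratio was higher against 14.1% of all such genes. Atf4 stood in 15 and Wfs1 in 12, each with a lower ratio, and their ratios were lower against 29.1% and 23.7% of all such genes. Creld2 per Sdf2l1, both genes with short exons and ER stress induction, was 1.06, 0.935, 0.826 and 0.746 in Chd4KO replicates 1 to 4, against 0.459, 0.554, 0.535 and 0.479 in Control replicates 1 to 4. Here Chd4KO replicate 2 lies with the other Chd4KO libraries. Creld2 per Hspa5 was 0.310, 0.238, 0.426 and 0.754 in Chd4KO, against 0.168, 0.146, 0.145 and 0.148 in Control. Creld2 has 1366 bases of exon and Hspa5 has 4229, and the part of length in this ratio was not tested. Atf4 per Xbp1 was 0.404, 0.279, 0.253 and 0.0763 in Chd4KO, against 0.435, 0.433, 0.530 and 0.653 in Control. These ratios show unequal change of pairs and carry no test, since they were picked from the values.

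The surrounding pathway was read from 10 lists of further genes, of which 182 of 196 matched genes were tested. Limma called 1 of them higher and 1 lower, where 1.53% of all genes were called higher and 1.44% lower. Without Chd4KO replicate 4 it called 2 higher, Prdx4 and Phgdh, and 2 lower, Sil1 and Fkbp9, where 5.48% of all genes were called. Sil1, which releases ADP from BiP and so resets the chaperone for its next client, had 38.3, 36.99, 34.8 and 31.7 TPM in Chd4KO replicates 1 to 4, against 104, 86.2, 88.6 and 85.4 TPM in Control replicates 1 to 4. Sil1 lay lower in every Chd4KO library, changed by -1.33 ± 0.16 (log2, SE; 95% confidence interval -1.70 to -0.96; limma adjusted p = 0.00330), and was called in all 19 alternatives. Antisense genes overlap its exons, and the libraries do not mark strand. Prdx4, an ER peroxiredoxin that uses peroxide to form disulfide bonds, had 40.1, 34.7, 38.3 and 41.05 TPM in Chd4KO replicates 1 to 4, against 19.4, 22.96, 23.6 and 22.7 TPM in Control replicates 1 to 4. It was higher in every Chd4KO library, changed by 0.77 ± 0.16 (log2, SE; 95% confidence interval 0.41 to 1.14; limma adjusted p = 0.0377), and was called in 9 of 19 alternatives, with adjusted p between 0.00769 and 0.137. It was not called without Chd4KO replicate 1, without Chd4KO replicate 3 or without any 1 of the Control libraries (0.0725 to 0.137). Nor was it called with a pseudocount of 0.1 (0.0555), median-of-ratios scaling (0.0647), scaling without hormones and mitochondrial genes (0.0628) or the replicate block (0.134), while its change stayed between 0.71 and 1.05 over the 19.

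Ero1lb, a disulfide oxidase abundant in islets, lay lower without passing and is named here after its values were seen. It had 583, 257, 346 and 100.5 TPM in Chd4KO replicates 1 to 4, against 699, 775, 831 and 762 TPM in Control replicates 1 to 4. The groups did not overlap, and the change was -1.51 ± 0.46 (log2, SE; 95% confidence interval -2.54 to -0.47; limma adjusted p = 0.143). It was called in 3 of 19 alternatives, which were median-of-ratios scaling, removal of length curves and leaving out Chd4KO replicate 1. Sil1 and Ero1lb thus lay lower, and Prdx4 higher, in all 4 Chd4KO libraries. Of the 182 tested genes of the pathway lists, 3 lay higher and 12 lower in every Chd4KO library than in every Control library. The shares over all tested genes were 3.54% higher and 11.3% lower, so such a separation was not particular to these genes.

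In the other lists no gene was called, and the genes with the highest TPM of each list are given. Of 28 tested ATF4 targets 4 had an unadjusted p under 0.05, a share close to the 16.2% of all tested genes. Atf3, a stress-induced factor, had 36.1, 539.8, 41.2 and 19.9 TPM in Chd4KO replicates 1 to 4, against 20.4, 591, 765 and 703 TPM in Control replicates 1 to 4. Chd4KO replicate 2 and Control replicates 2 to 4 lie above 500 TPM, and the other 4 libraries lie below 50 TPM, so that the split crosses the groups. Gars, a tRNA synthetase gene, had an estimate of -0.34 (-0.99 to 0.30). For the 16 tested genes of eIF2 control the median was -0.18, with Ppp1ca at 0.16 (-0.20 to 0.51) and Eif2b5 at -0.05 (-0.52 to 0.41). Among 8 tested sensors and processing factors, Creb3 was at 0.17 (-0.22 to 0.56) and Rtcb, the ligase that joins spliced Xbp1, at -0.61 (-1.47 to 0.25). Rtcb had 105, 107, 106 and 31.7 TPM in Chd4KO replicates 1 to 4, against 135, 117, 113 and 118 TPM in Control replicates 1 to 4, below every Control library in all 4 Chd4KO libraries.

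For ER entry the median of 22 genes was -0.18, with Srpr at -0.37 (-1.08 to 0.34) and Tram1 at 0.02 (-0.51 to 0.55). For N-glycosylation it was -0.30 over 16, with Ddost at 0.17 (-0.26 to 0.61) and Rpn2 at -0.39 (-0.82 to 0.05). Further degradation genes had a median of -0.18 over 28, with Os9 at -0.08 (-0.69 to 0.52) and Vcp at -0.51 (-1.42 to 0.39). ER-phagy genes had a median of -0.28 over 14, with Retreg2 at -0.01 (-0.62 to 0.60) and Cdk5rap3 at -0.40 (-0.81 to 0.01). Cell death genes of ER stress had a median of -0.13 over 11, with Txnip at -0.13 (-1.46 to 1.19) and Bax at 0.15 (-0.25 to 0.55). Disulfide formation genes had a median of -0.05 over 18, and co-chaperones and prolyl isomerases one of -0.19 over 21. All 10 medians lie within 0.21 (log2) of the median of all genes.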

How the data were processed

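RNA of 8 flow-sorted beta cell samples was made into cDNA with a SMART-Seq v4 low-input kit and into libraries with Nextera XT, per the labels' protocols, neither of which marks strand. The authors deposited TPM, which sums to 1000000 in each library, so a larger insulin share lowers every other value. FastQC, Trimmomatic, HISAT2, HTSeq and DESeq2 with mm10 are named in the submitters' processing notes, without versions. Counting settings and the annotation version were not given in the sources used here. Gene symbols and positions come from GENCODE M21, which held 99.5% of the 55487 identifiers. Of the Ddit3 identifiers the longer was used.

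Genes with at least 1 TPM in at least 4 libraries entered limma 3.58.1 (R 4.3.3) as log2(TPM + 1), in a model of genotype alone with Benjamini-Hochberg adjustment over all tested genes. The pseudocount of 1 understates changes of low genes. TPM times merged exon length was a whole multiple of 1 read within 0.05 for 98.5 to 98.7% of values, and these recovered reads, used for depth and for voom, gave 588 called genes. Alternatives were a pseudocount of 0.1, no filter, a minimum of 5 TPM, median-of-ratios scaling, scaling without hormones and mitochondrial genes, a robust variance trend, voom, a replicate block and leaving out libraries. Where libraries were left out, the filter of 1 TPM asked for as many libraries as the smaller group still held. A fit without Chd4KO replicate 4 under median-of-ratios scaling, a fit with length curves removed, and the ratios were added after seeing the data.

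The 40 genes and all lists were chosen with earlier results of these data known. Named are the 40 genes, from each pathway list up to 6 called genes or else the 2 tested genes with the highest TPM, and Chd4. Of the further genes listed, 3 names had no match. Replicates carry separate animal numbers. Where these do not stand for separate mice, p-values and intervals rest on the spread between samples and not between mice. Intervals are for the difference of Chd4KO and Control in mean log2(TPM + 1). Tables were joined in Python 3.11.15 with pandas 2.3.3 and numpy 2.4.6, exact tests run with scipy 1.17.1 and figures drawn with matplotlib 3.10.9. The fit was tested on simulated data.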

Additional observations from a re-analysis of the deposited data

Results flagged for a closer look

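In groups of 4, a library was singled out when its gap to the nearest other library, divided by the range of the group, exceeded Dixon's 95% critical value. Of 116 groups examined 8 passed, where chance alone gives about 1 in 20, or 5.8. Chd4KO gave 2. Sdf2l1 was low in Chd4KO replicate 2 (ratio 0.852), the library with acinar transcripts. The tRNA ligase gene Rtcb was low in Chd4KO replicate 4 (0.981), at 31.7 TPM against 104.5 to 107 TPM in the other Chd4KO libraries. Rtcb has 2615 bases of exon. In that library the median deviation of all genes with 2000 to 4000 bases was -0.62 (log2). The other 6 were Control values. In Control replicate 1 the stress genes Ppp1r15a (0.838) and Atf3 (0.928) were low, and the long genes Atf6 (0.958) and Sel1l (0.935) were high. In Control replicate 2 Pdia3 (0.838) and Syvn1 (0.934) were low, and that library had the highest acinar marker sum of Control, 1849 TPM. What set these values apart was not tested.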

How the results depend on the processing

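No gene of the 40 was called lower under any of the 19 alternatives. Creld2 was called higher without Chd4KO replicate 2, which made 1 call, and Creld2 and Derl3 without Chd4KO replicates 2 and 4, which made 2; leaving out single libraries gave 0 to 1. Over the 760 changes of a gene under an alternative, 105 had the opposite sign to the reported change, and none of these was called under either. Over all genes the 451 calls became 220 at a minimum of 5 TPM, 724 with median-of-ratios scaling, 783 with scaling without hormones and mitochondrial genes, 833 without Chd4KO replicates 2 and 4, 1037 with median-of-ratios scaling without Chd4KO replicate 4, 821 with length curves removed, and 171 to 866 without single libraries. The median of the IRE1/XBP1 and translocon genes was -0.14 with median-of-ratios scaling, -0.14 without Chd4KO replicates 2 and 4 and -0.16 with length curves removed. The cause was not tested. Fewer libraries entered some fits, and the number of tested genes differed as well. Against 15189, it was 9970 at a minimum of 5 TPM and 16414 without Chd4KO replicates 2 and 4. The replicate block gave 274 genes and none of the 40. Samples sharing a number deviated together with correlations of -0.02, 0.43, 0.08 and 0.04, and replicate 2 alone correlated best with its own number. Each sample numbered 2 had the highest acinar marker sum of its group (44918 TPM in Chd4KO, 1849 TPM in Control). The correlations cannot show whether a shared number marks a shared litter or day, which was not tested. With 4 against 4 libraries most changes of the size seen in the 40 genes have intervals that include 0.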

Other observations

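Genes with an ER stress element of either form, 11 of the 36 with a promoter window, had a median change of -0.08 (log2), and the 25 without had -0.36, beside -0.25 for all tested genes. All 11 belong to the folding or the degradation genes, whose medians were -0.14 and -0.04, so this split cannot be told apart from the arms. These values describe the 36 genes and carry no test. Phgdh, which opens serine synthesis and is an ATF4 target, had 191, 139.7, 97.5 and 71.7 TPM in Chd4KO replicates 1 to 4, against 58.4, 70.5, 74.5 and 57.98 TPM in Control replicates 1 to 4. Its estimate was 0.84 (0.17 to 1.51) (limma adjusted p = 0.209), and Chd4KO replicate 4 overlapped Control. Phgdh passed the test in 5 of 19 alternatives, among them without Chd4KO replicate 4 (1.07, adjusted p = 0.0402) and median-of-ratios scaling (1.12, 0.0107), with adjusted p between 0.0107 and 0.432 over the 19. Fkbp9, a prolyl isomerase of the ER, had 151, 138, 142 and 57.1 TPM in Chd4KO replicates 1 to 4, against 243, 253, 238 and 227 TPM in Control replicates 1 to 4. The groups did not overlap, with an estimate of -1.07 (-1.76 to -0.37) (adjusted p = 0.121). It passed in 6 of 19, among them without Chd4KO replicate 4 (-0.74, adjusted p = 0.0126), with adjusted p between 0.0126 and 0.289. Phgdh and Fkbp9 were named after their values were seen.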
